A study of Homo sapiens with 6 samples.

Results

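The genes described here are 9 components of MHC class I antigen presentation, out of 57150 genes in the table: HLA-B, HLA-C, HLA-E, HLA-F, B2M, TAP1, TAP2, TAPBP and ERAP1. They were taken by gene symbol, and where a symbol was repeated the entry with the highest mean over the 6 libraries was kept, which applied to TAP2. RNA-seq was carried out on MDA-MB-435, an established human cancer cell line. The tested libraries were 3 of the ZCCHC24 knockdown (KD), in which this CCHC-type zinc finger gene was reduced, and they were set against 3 controls (CTRL). The sources used here give neither the agent behind the knockdown, nor its duration, nor what the controls received. The labels do not say whether the libraries of a group derive from separate cultures, and each p-value therefore reflects the spread between these libraries alone.

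MHC class I molecules show peptides from inside the cell to cytotoxic T cells. The proteasome cuts proteins into peptides, the TAP transporter carries these into the endoplasmic reticulum, and aminopeptidases there trim them. A heavy chain paired with beta-2 microglobulin is then loaded with a peptide under the control of tapasin and travels to the surface. Interferons raise most genes of this pathway, and tumour cells, melanoma included, are known to lose parts of it.

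Values are FPKM, the number of sequenced fragments scaled to transcript length and to the mapped fragments of the library, so levels of different genes can be set side by side. A change is the KD minus the CTRL mean on log2(FPKM + 1), with the standard error from a limma fit over the 13343 genes that averaged 1 FPKM or more. This scale understates the change of weakly expressed genes: with a pseudocount of 0.1 in place of 1, ZCCHC24 changed by -2.85 in place of -2.36 and the regulator RFXAP by 0.90 in place of 0.61. A gene is said to rise or fall when its Benjamini-Hochberg adjusted p over all genes tested was below 0.05. All 9 genes passed the expression filter.

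ZCCHC24 itself was at 1.54, 1.69 and 1.81 FPKM in the KD libraries, against 12.7, 12.3 and 13.2 FPKM in the CTRL libraries, which left 13.2% of the control level (change -2.36 ± 0.08, limma adjusted p = 1.5e-07). Absolute depth is unknown; judged from the smallest values, relative depth varied by a factor of 1.27 over the 6 libraries. The labels give breast as the tissue, while this line has since been traced to a melanoma. All 10 melanocyte lineage markers were expressed, whereas 6 of 12 breast epithelial markers reached a mean of 1 FPKM and KRT5 and TFF1 were at 0 in all libraries. Melanocyte markers summed to 1542 to 1603 FPKM in KD libraries and 2241 to 2344 FPKM in CTRL libraries, with 8 of 10 lower and 1 higher in KD. The called share of these 10 was 90.0%, against 72.4% of all tested genes, of which 35.4% were called lower. The pigment genes PMEL (-2.14) and TYRP1 (-1.72) fell most, and GPR143, a melanosome receptor, averaged 30.2 ± 2.06 FPKM in KD and 70.1 ± 0.229 FPKM in CTRL. Of the 6 tested breast epithelial markers, the keratins KRT8 (0.69) and KRT18 (0.36) rose and the other 4 did not pass (CDH1 -0.31, EPCAM -0.15, KRT19 -0.09 and MUC1 0.13), with a list median of 0.02. The called share of these 6 was 33.3%. The part of either marker list in the class I results was not tested. None of 12 immune cell markers reached 1 FPKM. Together these markers summed to 0.694 to 0.860 FPKM in KD libraries and 0.449 to 1.38 FPKM in CTRL libraries, and CD3E and NKG7 were at 0 in all of them.

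Of the 9 genes, HLA-E and HLA-B rose in the KD libraries, ERAP1, TAPBP and TAP2 fell, and HLA-C, HLA-F, B2M and TAP1 did not pass the test. The 5 called genes are 55.6% of the 9, while 72.4% of all tested genes were called in either direction. With only 9 genes, no difference from the background can be read from these shares, and B2M was also called under median scaling and quality weights. In each direction, 37.0% of all tested genes were called higher and 35.4% lower. The groups did not overlap for 6 of the 9 genes, against 75.9% of all tested genes. The median change of the 9 genes was -0.03 and that of all tested genes was 0.01. In bulk samples such as these, fewer cells of a type and less RNA per cell cannot be told apart. The 3 falls were all in genes that deliver, trim or load peptides, and the 2 rises were both in heavy chains.

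**Figure D1:**
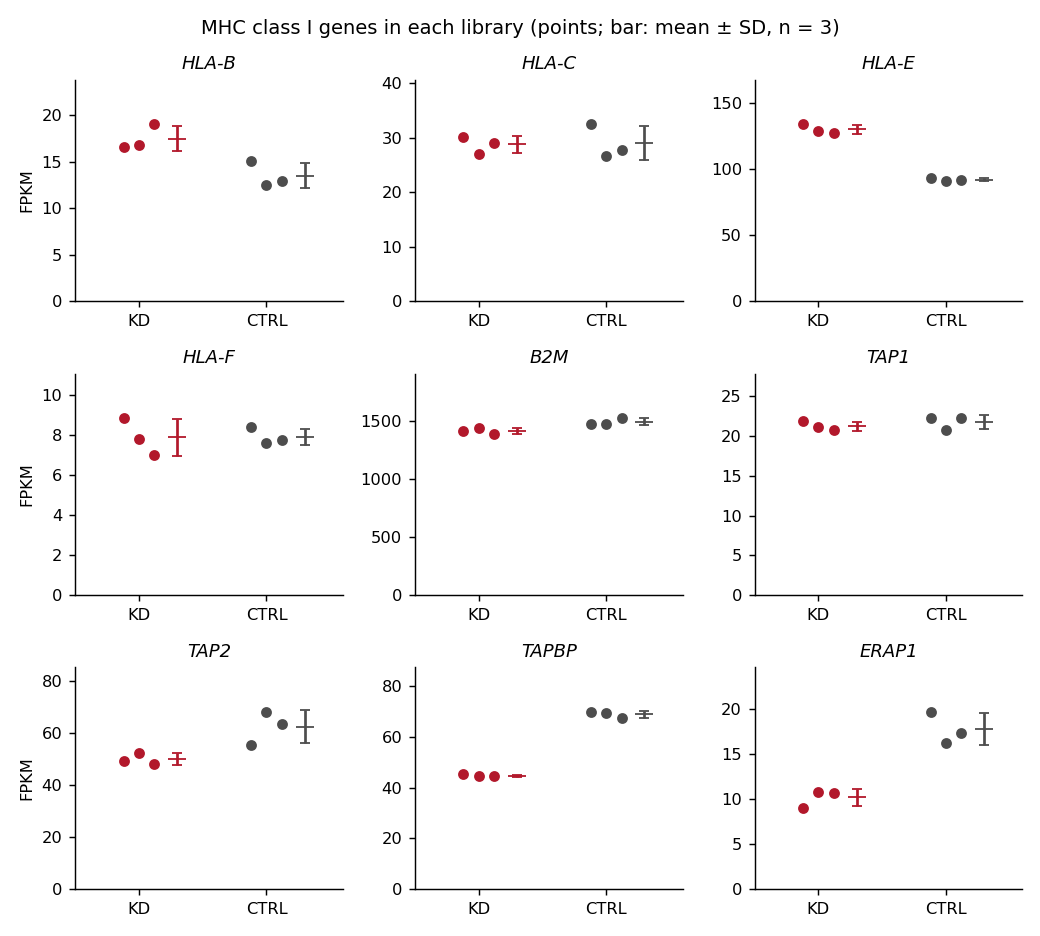
FPKM of the 9 class I genes in each library, 1 panel per gene with its own scale starting at 0. Points are the 3 KD and 3 CTRL libraries and the bars beside them show the mean ± SD (n = 3 each). HLA-E stands higher in every KD library, TAPBP and ERAP1 stand lower, and the HLA-C, HLA-F and TAP1 groups overlap.

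HLA-B and HLA-C encode classical heavy chains, the polymorphic chains that hold the peptide. HLA-B (ENSG00000234745, hg19 chromosome 6, 31321648 to 31325414) was at 16.6, 16.9 and 19.1 FPKM in KD libraries, against 15.0, 12.5 and 12.9 FPKM in CTRL libraries. Every KD library lay above every CTRL library. HLA-B averaged 17.5 ± 1.35 FPKM in KD and 13.5 ± 1.36 FPKM in CTRL (SD, n = 3 each), a change of 0.35 ± 0.08 (limma adjusted p = 0.0050). HLA-C (ENSG00000204525, chromosome 6, 31236525 to 31239907) was at 30.2, 27.1 and 29.1 FPKM in KD libraries, against 32.5, 26.7 and 27.7 FPKM in CTRL libraries. The KD values of HLA-C all lay within the range of the controls. Its change had a 95% interval of -0.19 to 0.18 (limma adjusted p = 0.96), so a shift as large as the one fitted for HLA-B lay outside the interval. Within a library, HLA-B stood at 0.550, 0.622 and 0.654 of the HLA-C level in KD, against 0.463, 0.469 and 0.466 in CTRL. The KD and CTRL ratios did not overlap. The exact two-sided permutation test of this ratio returned 0.1, as it also did after adjustment over the 7 ratios computed; groups of 3 and 3 cannot go lower.

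The 250 bases before the RefSeq transcription start of HLA-B and HLA-C are shown because these neighbouring genes carry nearly the same row of motifs and HLA-B rose while HLA-C did not pass. Capitals mark, on either strand, matches to AANNGAAA (the core bound by interferon regulatory factors), a kappa-B pattern (bound by NF-kB), TGACG (the core of a cAMP response element) and CCAAT.
HLA-B: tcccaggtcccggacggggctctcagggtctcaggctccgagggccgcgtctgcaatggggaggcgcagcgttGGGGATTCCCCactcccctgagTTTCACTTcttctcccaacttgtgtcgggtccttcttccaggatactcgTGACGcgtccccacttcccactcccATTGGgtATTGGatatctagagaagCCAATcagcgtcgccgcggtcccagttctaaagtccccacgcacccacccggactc
HLA-C: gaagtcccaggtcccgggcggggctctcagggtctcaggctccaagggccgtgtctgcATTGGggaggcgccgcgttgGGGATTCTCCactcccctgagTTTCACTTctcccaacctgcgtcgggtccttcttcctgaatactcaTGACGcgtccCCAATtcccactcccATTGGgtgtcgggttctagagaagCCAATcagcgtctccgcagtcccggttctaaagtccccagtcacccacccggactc
The HLA-B window is chr6:31357180-31357429 and the HLA-C window is chr6:31272093-31272342 (GRCh38.p14, minus strand). HLA-B holds the interferon factor core 155 bases before its start and HLA-C 151 bases before its start. A kappa-B match begins 177 bases before the HLA-B start, where it also matches in the opposite direction from 176 bases, and 172 bases before the HLA-C start. Over all the class I genes except HLA-E, 10 windows were read, of which 8 held the interferon factor core, against 20.3% of 35116 windows of the same length. These letters were widened after a narrower pattern, GAANNGAAA, had been searched in the same windows, where it was in 4 of the 10 and in 6.56% of all windows, so the 8 of 10 is a description of letters chosen with these windows in view. The kappa-B pattern was in 4 of the 10 and in 4.46% of all windows, TGACG in 4 and 21.2%, and CCAAT in 6 and 32.01%. These are matches of letters in the reference sequence, and no binding was measured.

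HLA-E and HLA-F encode non-classical heavy chains. HLA-E presents leader peptides of other class I chains to an inhibitory receptor of natural killer cells. The gene (ENSG00000204592, chromosome 6, 30457243 to 30461982) was at 134, 129 and 127 FPKM in KD libraries, against 93.2, 90.8 and 91.8 FPKM in CTRL libraries. The lowest KD library stood well above the highest CTRL library. HLA-E averaged 129.7 ± 3.64 FPKM in KD and 91.9 ± 1.18 FPKM in CTRL, a 1.41-fold difference, with a change of 0.49 ± 0.04 (limma adjusted p = 7.0e-06). It was the member with the largest rise, at the 79.4th percentile of the changes of all tested genes. HLA-F, whose protein is found mostly inside the cell (ENSG00000204642, chromosome 6, 29690551 to 29716826), was at 8.87, 7.80 and 6.99 FPKM in KD libraries, against 8.38, 7.62 and 7.77 FPKM in CTRL libraries. The KD values of HLA-F lay on both sides of the controls. Its change of -0.01 had a 95% interval of -0.22 to 0.19 (limma adjusted p = 0.92). The table gives HLA-F a locus that it also gives to the antisense gene HLA-F-AS1, from which it could not be told apart without knowledge of strand in counting.

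Reads of heavy chain genes can fit more than 1 gene. Of the 100-base stretches of the longest GENCODE v29 coding transcript, the same letters occurred in transcripts of other genes for 0 of 1448 in HLA-B, 4 of 1455 in HLA-C, 15 of 2502 in HLA-E and 0 of 1536 in HLA-F. These counts are for the reference sequence; the alleles of this cell line were not compared with it, and levels of polymorphic genes depend on how their reads matched the reference.

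B2M encodes beta-2 microglobulin, the light chain shared by all these heavy chains, and was by far the most abundant of the 9 transcripts. The gene (ENSG00000166710, chromosome 15, 45003674 to 45011075) was at 1408, 1439 and 1385 FPKM in KD libraries, against 1467, 1474 and 1523 FPKM in CTRL libraries. All KD libraries were slightly lower than all CTRL libraries, with means of 1411 ± 27.1 FPKM in KD and 1488 ± 30.4 FPKM in CTRL. The change of -0.08 had a 95% interval of -0.15 to -0.0016 and did not pass (limma adjusted p = 0.063). It did pass with median scaling of the libraries (-0.09, limma adjusted p = 0.038) and with sample quality weights (-0.08, limma adjusted p = 0.045). The 4 heavy chains together reached 189.4, 180.4 and 181.9 FPKM in KD libraries, against 149.1, 137.7 and 140.2 FPKM in CTRL libraries. Their sum was 0.130 ± 0.00465 of the B2M level in KD and 0.0957 ± 0.00516 in CTRL. The ratio was 1.36 times as high in KD without overlap (exact two-sided permutation p = 0.1, also adjusted). Light chain transcripts thus exceeded the summed heavy chain transcripts in every library of either group.

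**Figure D2:**
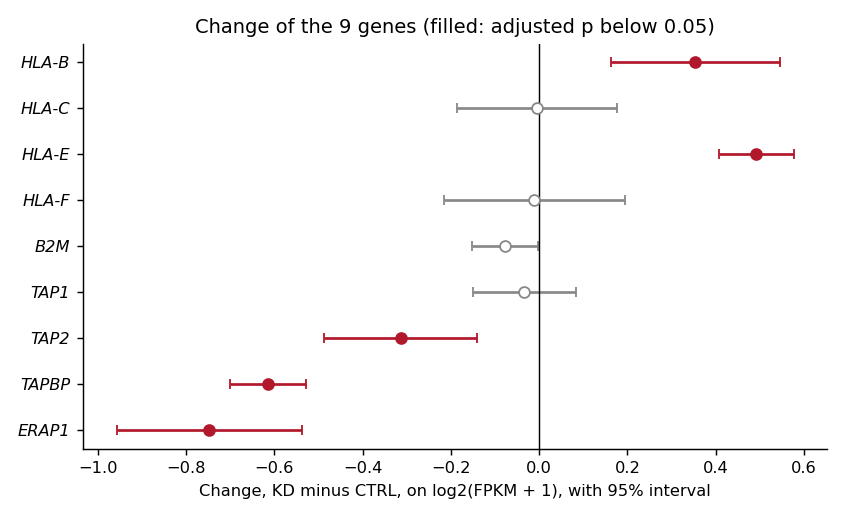
Change of each of the 9 genes, KD minus CTRL on log2(FPKM + 1), with its 95% interval from the limma fit. Filled points passed an adjusted p of 0.05: HLA-B and HLA-E lie to the right of 0, TAP2, TAPBP and ERAP1 to the left, and open points did not pass.

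TAP1 and TAP2 encode the paired subunits of the peptide transporter. TAP1 (ENSG00000168394) was at 21.9, 21.1 and 20.7 FPKM in KD libraries, against 22.2, 20.8 and 22.3 FPKM in CTRL libraries. The groups overlapped, and the change of -0.03 had a 95% interval of -0.15 to 0.08 (limma adjusted p = 0.56). TAP2 (ENSG00000204267, chromosome 6, 32780539 to 32806599) was at 49.2, 52.5 and 48.1 FPKM in KD libraries, against 55.5, 68.2 and 63.6 FPKM in CTRL libraries. All KD values were below all CTRL values, though control 1 lay much nearer to the KD libraries than the other controls. TAP2 averaged 49.9 ± 2.28 FPKM in KD and 62.4 ± 6.43 FPKM in CTRL, a change of -0.31 ± 0.08 (limma adjusted p = 0.0055). The TAP1 level was 0.426 ± 0.0217 of the TAP2 level in KD and 0.352 ± 0.0479 in CTRL, again without overlap but at the exact permutation floor of p = 0.1. Of the 5585 stretches of 100 bases in the TAP2 transcript, 1965 also occurred in an overlapping gene model, which the table lists under the same symbol and locus at 2.75, 2.43 and 2.21 FPKM in KD libraries and 2.14, 2.87 and 2.34 FPKM in CTRL libraries. With both entries summed, TAP2 changed by -0.30 (limma adjusted p = 0.0070).

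TAPBP encodes tapasin, which bridges TAP and the heavy chain and edits the bound peptide. The gene (ENSG00000231925, chromosome 6, 33267470 to 33282164) was at 45.3, 44.4 and 44.4 FPKM in KD libraries, against 70.0, 69.4 and 67.5 FPKM in CTRL libraries. The libraries within each group were close together and the groups far apart. TAPBP averaged 44.7 ± 0.484 FPKM in KD, 64.8% of the 69.0 ± 1.32 FPKM in CTRL (change -0.61 ± 0.04, limma adjusted p = 2.4e-06). ERAP1 encodes the aminopeptidase of the endoplasmic reticulum that trims peptides to the length that fits the groove. The gene (ENSG00000164307) was at 9.04, 10.8 and 10.7 FPKM in KD libraries, against 19.7, 16.2 and 17.3 FPKM in CTRL libraries. No KD library came near the controls. ERAP1 averaged 10.2 ± 0.981 FPKM in KD, 57.3% of the 17.8 ± 1.79 FPKM in CTRL, the largest fall of the 9 (change -0.75 ± 0.09, limma adjusted p = 0.00012). The table gives ERAP1 a wide locus (hg19 chromosome 5, 95220801 to 96143803) that it also gives to CAST and ELL2, which did not pass (limma adjusted p = 0.067 and 0.84).

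In order of level, B2M was followed by HLA-E, TAP2, TAPBP, HLA-C, TAP1, HLA-B, ERAP1 and HLA-F in KD. No neighbours in this order overlapped. In CTRL the order was B2M, HLA-E, TAPBP, TAP2, HLA-C, TAP1, ERAP1, HLA-B and HLA-F, in which TAPBP and TAP2 overlapped. HLA-B and ERAP1 thus stood in the opposite order in KD and in CTRL, without overlap in either. The mean profile of the 9 genes over the 6 libraries was most like those of JOSD2 (r = 0.989), RPS16 (r = 0.989) and MPP3 (r = 0.988), out of 11100 protein-coding genes compared. That mean joins members that rose with members that fell. Its standardized values were 0.04, -0.28 and -0.52 in KD libraries, against 0.61, -0.14 and 0.30 in CTRL libraries, so the groups overlapped. None of JOSD2, RPS16 and MPP3 passed the test between groups, and with 6 libraries the likeness is only a description.

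Genes of peptide supply were read from the same fit. Immunoproteasome subunits replace the constitutive catalytic subunits and favour peptides that suit class I grooves. Among 7 genes for these subunits and for proteasome activators, the test called 4 lower and 2 higher, and the median change was -0.55. The called share was 85.7% of these 7, against 72.4% of all tested genes, of which 35.4% were called lower. PSMB9 was at 19.0, 17.6 and 17.6 FPKM in KD libraries, against 42.5, 41.5 and 40.2 FPKM in CTRL libraries. All KD values were under the lowest control by more than the spread of either group (change -1.15 ± 0.05, limma adjusted p = 4.7e-07). PSMB8 averaged 42.6 ± 2.40 FPKM in KD and 80.0 ± 2.68 FPKM in CTRL (limma adjusted p = 1.9e-06). PSMB10 averaged 20.7 ± 2.41 FPKM in KD and 41.95 ± 7.56 FPKM in CTRL (limma adjusted p = 0.00024). So all 3 inducible catalytic subunits fell, as did PSME2, a subunit of the interferon-induced proteasome activator (79.1 ± 2.42 FPKM in KD, 116 ± 8.22 FPKM in CTRL, limma adjusted p = 3.9e-05). PSME1, its partner subunit, averaged 82.7 ± 5.34 FPKM in KD and 86.6 ± 3.06 FPKM in CTRL and was not called. The nuclear activator PSME3 rose (change 0.41 ± 0.03), and so did the assembly factor POMP (0.29 ± 0.05).

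Among the constitutive counterparts, PSMB6 rose to 269 ± 11.2 FPKM in KD, against 167 ± 10.8 FPKM in CTRL (change 0.68 ± 0.05, limma adjusted p = 9.6e-06). PSMB5 and PSMB7 fell slightly (changes -0.19 ± 0.05 and -0.24 ± 0.04). Set against its counterpart in the same library, PSMB9 was 0.0676, 0.0673 and 0.0670 of PSMB6 in KD, against 0.236, 0.257 and 0.250 in CTRL. This ratio in KD was 0.272 times that in CTRL, and no libraries overlapped. The PSMB8 to PSMB5 ratio was 0.390 ± 0.0199 in KD and 0.642 ± 0.0221 in CTRL, and the PSMB10 to PSMB7 ratio was 0.0815 ± 0.0114 in KD and 0.140 ± 0.0255 in CTRL. Each of these ratios gave an exact permutation p = 0.1, which is the floor of the design.

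**Figure D3:**
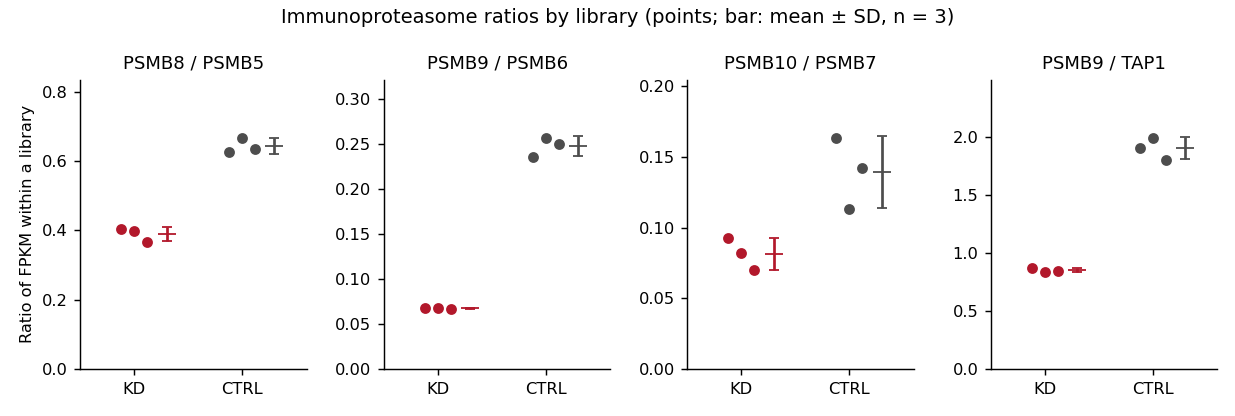
Ratios of FPKM within each library, with axes starting at 0. Points are the 3 KD and 3 CTRL libraries and bars show the mean ± SD (n = 3 each). The inducible subunits PSMB8, PSMB9 and PSMB10 stand lower against their constitutive counterparts in every KD library, and PSMB9 stands lower against its neighbour TAP1.

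TAP1 and PSMB9 lie back to back on chromosome 6 and are transcribed away from each other, and this stretch is known as a shared promoter of the pair. The PSMB9 start and the nearer RefSeq start of TAP1 are 488 bases apart, and the windows of 250 bases before each start share 13 bases. They are printed, with capitals as above, because TAP1 did not pass the test while PSMB9 fell to 0.436 of its control level.
TAP1: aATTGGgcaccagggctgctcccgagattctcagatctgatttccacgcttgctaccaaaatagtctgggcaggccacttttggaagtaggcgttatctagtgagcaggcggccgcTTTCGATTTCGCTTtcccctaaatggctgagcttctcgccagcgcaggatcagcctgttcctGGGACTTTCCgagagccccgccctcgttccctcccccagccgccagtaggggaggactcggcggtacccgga
PSMB9: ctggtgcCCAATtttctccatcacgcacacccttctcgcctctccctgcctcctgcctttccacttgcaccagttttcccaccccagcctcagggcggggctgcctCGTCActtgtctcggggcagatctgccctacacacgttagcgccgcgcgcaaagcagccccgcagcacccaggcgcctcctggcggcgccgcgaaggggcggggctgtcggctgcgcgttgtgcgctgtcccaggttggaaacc
The TAP1 window is chr6:32853705-32853954 on the minus strand and the PSMB9 window is chr6:32853942-32854191 on the plus strand (GRCh38.p14). On the TAP1 side, the interferon factor core matched from 134 and 128 bases before the start and the kappa-B pattern from 72 bases before it. On the PSMB9 side neither pattern was found in the window. The matches of the TAP1 window lie between the TAP1 and PSMB9 starts, but beyond the 250 bases read before PSMB9. PSMB9 stood at 0.869, 0.835 and 0.847 of the TAP1 level in KD, against 1.91, 1.997 and 1.81 in CTRL. PSMB9 was thus the weaker of the pair in each KD library and the stronger in each CTRL library. This ratio was chosen after its values were seen, and its exact permutation p was 0.1. The table gives TAP1, PSMB8 and PSMB9 the same locus (hg19 chromosome 6, 32808493 to 32827362) and gives no sign whether strand was used in counting.

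Other genes of peptide loading and trimming mostly fell. Among 13 chaperones and trimming enzymes, 9 were called lower and 1 higher, with a median change of -0.44. The called share of 76.9% was near the 72.4% of all tested genes, of which 35.4% were called lower. The gene called higher was HSPA5, a chaperone that binds unfolded proteins (245 FPKM in KD, 209 FPKM in CTRL). ERAP2, the partner aminopeptidase of ERAP1, was at 10.5, 11.9 and 11.6 FPKM in KD libraries, against 21.8, 21.8 and 21.96 FPKM in CTRL libraries (limma adjusted p = 3.6e-06). THOP1, a cytosolic peptidase, averaged 18.1 ± 1.10 FPKM in KD and 42.2 ± 1.61 FPKM in CTRL (limma adjusted p = 7.4e-07). GANAB, a subunit of the glucosidase that prepares glycans for the calnexin cycle, averaged 146 ± 0.662 FPKM in KD and 247 ± 12.1 FPKM in CTRL (limma adjusted p = 1.5e-06). In KD, ERAP2 stood at 0.520 and ERAP1 at 0.573 of the control level.

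Among 14 regulators of class I transcription, 7 were called higher and 4 lower, and the median change was 0.08. The called share of 78.6% was near the 72.4% of all tested genes. NLRC5, the class I transactivator, was at 3.62, 3.08 and 3.94 FPKM in KD libraries, against 3.62, 3.87 and 3.57 FPKM in CTRL libraries, and did not pass (change -0.05, limma adjusted p = 0.68). In the RFX complex, with which it acts, RFXAP (0.61) and RFXANK (0.29) rose while RFX5 (-0.37) fell. RFXAP was weakly expressed, at 2.48 ± 0.101 FPKM in KD and 1.28 ± 0.136 FPKM in CTRL. In the NF-Y complex, which binds CCAAT, NFYA rose (0.77), NFYB fell (-0.31) and NFYC averaged 28.7 ± 1.15 FPKM in KD and 28.4 ± 1.90 FPKM in CTRL. The NFYB call (limma adjusted p = 0.037) was lost without the expression filter (0.10) and without 4 of the 6 libraries taken singly, with an adjusted p of up to 0.12.

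The NF-kB subunits went opposite ways. RELA rose to 76.7 ± 2.04 FPKM in KD, against 41.9 ± 1.91 FPKM in CTRL (change 0.86 ± 0.05, limma adjusted p = 1.3e-06). NFKB1 fell to 13.7 ± 0.766 FPKM in KD, against 26.1 ± 0.669 FPKM in CTRL (change -0.89 ± 0.06, limma adjusted p = 2.9e-06). The cAMP response factor ATF1 rose (0.50) and CREB1 fell (-0.70). Of the interferon factors, IRF2 rose (0.39), while IRF1 was at 5.38, 3.88 and 5.12 FPKM in KD libraries, against 5.38, 5.17 and 4.49 FPKM in CTRL libraries. IRF1 values overlapped between the groups (limma adjusted p = 0.66).

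Among 14 tested interferon receptor and signalling genes, 8 were called higher and 3 lower, and the median change was 0.24. This called share was also 78.6%, near that of all tested genes. The counts ran from 7 to 8 higher and 2 to 3 lower with single libraries left out. PIAS1, a SUMO ligase that restrains interferon signalling, averaged 19.0 ± 1.67 FPKM in KD and 11.4 ± 0.508 FPKM in CTRL (limma adjusted p = 5.1e-05). IFNAR1, a subunit of the type I interferon receptor, averaged 33.1 ± 0.852 FPKM in KD and 20.5 ± 2.28 FPKM in CTRL (limma adjusted p = 8.8e-05). IFNGR1, the ligand-binding chain of the interferon-gamma receptor, averaged 26.4 ± 0.401 FPKM in KD and 18.1 ± 2.51 FPKM in CTRL (limma adjusted p = 0.00085). The receptor partners IFNAR2 (-0.33) and IFNGR2 (-0.34) fell.

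**Figure D4:**
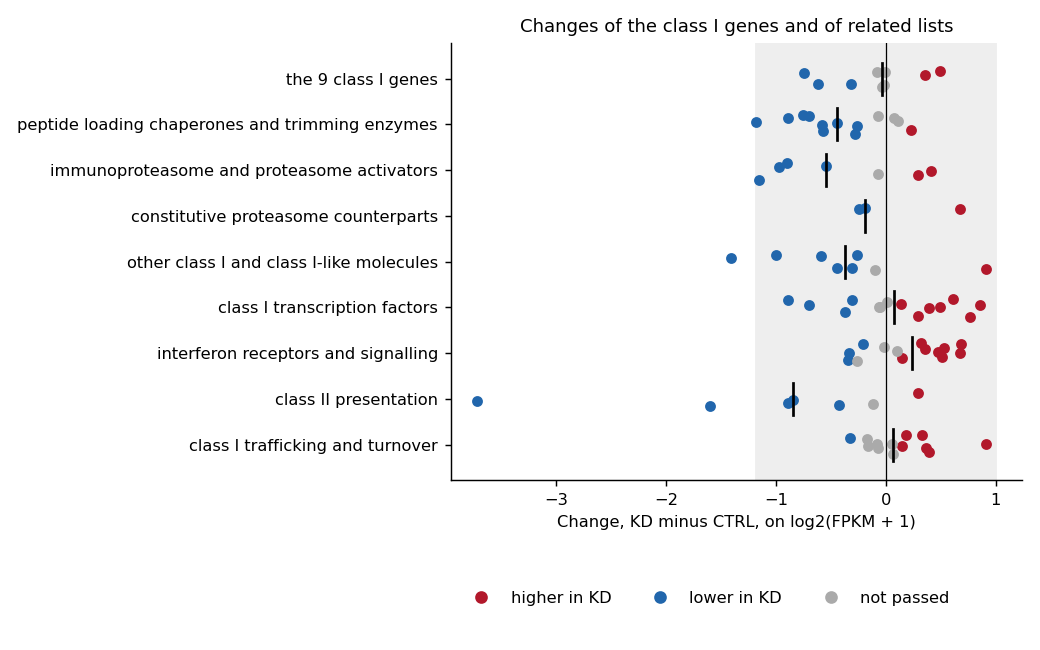
Change of each tested gene, KD minus CTRL on log2(FPKM + 1), for the 9 class I genes and related lists; black bars are list medians and the grey band spans the 5th to 95th percentile of all tested genes (-1.18 to 1.01). Red points rose, blue points fell and grey points did not pass; most loading, immunoproteasome and class II genes lie left of 0.

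Among 15 other class I and class I-like genes, 8 passed the expression filter, and of these 6 were called lower and 1 higher (median -0.37). The called share was 87.5% of the 8, against 72.4% of all tested genes, of which 35.4% were called lower. The count called lower was 4 without KD 1 or without CTRL 1, and 5 without any other single library. MICA and MICB, stress-induced ligands of an activating receptor of natural killer cells, moved in opposite directions. MICA was at 34.9, 35.7 and 36.0 FPKM in KD libraries, against 18.9, 19.3 and 17.1 FPKM in CTRL libraries (change 0.91 ± 0.06, limma adjusted p = 2.5e-06). MICB averaged 10.3 ± 0.159 FPKM in KD and 16.0 ± 0.703 FPKM in CTRL (change -0.59 ± 0.06, limma adjusted p = 2.6e-05). MICB was named after its values were seen. PROCR, the endothelial protein C receptor, fell to 24.5 ± 0.393 FPKM in KD, against 66.5 ± 1.71 FPKM in CTRL, and AZGP1, a soluble zinc-binding glycoprotein, to 23.1 ± 2.69 FPKM in KD, against 46.9 ± 0.649 FPKM in CTRL (limma adjusted p = 1.2e-07 and 8.5e-06). HLA-G, a non-classical heavy chain of the placenta, reached at most 0.109 FPKM in any library. Of 11 class I pseudogenes, 5 were at 0 in every library, and the 1 that was tested did not pass.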

How the data were processed

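Per the labels' protocols, a stranded mRNA kit was used on 1 ug of total RNA, with paired reads of 100 bases. The authors deposited a table of FPKM values with a column for each sample, per the file headers. Per the submitters' processing notes, TopHat 1.4.1, Cuffdiff 2.2.0 and hg19 were involved, with no role stated. Annotation, filters, strand setting and library scaling: not given in the sources used here. In all, the table held 57150 genes and 1 blank row, which was left out. Column names gave the samples.

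A filter kept genes averaging 1 FPKM or more, which were fitted on log2(FPKM + 1) with limma 3.58.1 in R 4.3.3 (empirical Bayes with trend, two-sided, Benjamini-Hochberg over 13343 genes, threshold 0.05), after the fit was tested on simulated data. No count model was run on FPKM. Ratios were compared by exact two-sided permutation tests. Stretches shared between genes were counted in GENCODE v29 transcripts. The 9 genes and all lists were chosen with earlier results of these data known. Named from other lists were the 3 called genes with the largest change and every proteasome and class I transcription factor gene, save a factor that is not reported here; others mentioned were picked after their values were seen. Tried besides were median scaling, quality weights, the replicate block, leaving out each library, 0.1 as pseudocount, filters of 0 or 5 FPKM and summing repeated symbols. Promoter windows come from RefSeq (GRCh38.p14) and were found for every class I gene except HLA-E; the letters of the interferon factor core were widened after a narrower pattern had been searched. Table loci are hg19 and were not converted.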

Additional observations from a re-analysis of the deposited data

How the results depend on the processing

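The 2 rises and 3 falls among the 9 genes kept their direction and stayed past the threshold in each of the 13 refits; B2M became a further fall under median scaling and quality weights. HLA-B ranged from 0.29 to 0.43, HLA-E from 0.47 to 0.51, TAP2 from -0.39 to -0.25, TAPBP from -0.63 to -0.60 and ERAP1 from -0.81 to -0.67. Over all genes, calls without single libraries numbered 4568 to 4787 (higher) and 4470 to 4568 (lower). Deviations of same-numbered libraries from their group means correlated at r of -0.03, -0.07 and 0.02. These values show no shared deviation, but they cannot settle whether the samples were paired, which the labels do not state. The replicate block gave 4971 higher and 4773 lower genes and ended the NFYB call (limma adjusted p 0.056). It also gave 9 higher and 2 lower interferon genes, 5 lower class I-like genes and 2 lower trafficking genes. Genes that did not pass changed sign in some refits: with a library left out, HLA-C ran from -0.059 to 0.078, HLA-F from -0.089 to 0.063, IRF1 from -0.134 to 0.058, NLRC5 from -0.109 to 0.029 and NFYC from -0.011 to 0.069; quality weights gave 0.019 for HLA-C and -0.0020 for NFYC. The ratios kept their direction with any library left out, the PSMB9 to PSMB6 ratio in KD staying at 0.265 to 0.277 of that in CTRL. The cause was not tested. With depth unknown, genes listed at 0 have no stated detection limit.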

Other observations

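Of 14 genes of MHC class II presentation, 7 passed the expression filter. Of these, 5 were called lower and 1 higher, and the median change was -0.84. The called share was 85.7% of the 7, against 72.4% of all tested genes, of which 35.4% were called lower. IFI30, a lysosomal thiol reductase, was at 1.31, 1.06 and 4.66 FPKM in KD libraries, against 42.8, 35.1 and 38.2 FPKM in CTRL libraries (limma adjusted p = 2.2e-05). CD74, the invariant chain, was at 5.49, 4.69 and 5.05 FPKM in KD libraries, against 18.3, 16.4 and 17.6 FPKM in CTRL libraries (change -1.60 ± 0.07, limma adjusted p = 5.6e-07). HLA-DRA, the alpha chain of HLA-DR, averaged 1.73 ± 0.322 FPKM in KD and 4.03 ± 0.206 FPKM in CTRL (limma adjusted p = 0.00014). CIITA, the class II transactivator, was below the expression filter at 0.0432, 0.115 and 0.204 FPKM in KD libraries and 0.451, 0.551 and 0.377 FPKM in CTRL libraries, and was not tested.

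Of 13 tested genes of class I trafficking and turnover, 6 were called higher and 1 lower (2 lower without KD 1). The called share was 53.8% of the 13, against 72.4% of all tested genes, of which 37.0% were called higher. IRGQ, an autophagy receptor for misfolded class I molecules, was at 24.5, 25.2 and 28.1 FPKM in KD libraries, against 14.0, 12.9 and 13.1 FPKM in CTRL libraries (limma adjusted p = 5.6e-06). TMEM127, a membrane protein that takes part in lysosomal loss of class I, averaged 64.0 ± 2.83 FPKM in KD and 48.4 ± 1.61 FPKM in CTRL (limma adjusted p = 0.00011). SYVN1, a ubiquitin ligase of the endoplasmic reticulum, averaged 43.8 ± 1.01 FPKM in KD and 33.9 ± 2.99 FPKM in CTRL (limma adjusted p = 0.0012). Of 110 tested genes whose locus starts within 500 kb of a class I gene, 37 were higher and 43 lower in KD, together 72.7%, which is close to the 72.4% of all tested genes.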
